A study of Mus musculus with 6 samples.

Results

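The glycolysis and hypoxia response genes described here are 33 named genes: 14 enzymes that carry glucose to lactate, 4 transporters and regulators of that flux, and 15 genes of oxygen sensing and other targets of hypoxia-inducible factor (HIF). They were found by symbol among the 55401 rows of the deposited gene table and occupied 34 rows, because the symbol Aldoa belongs to 2 identifiers. The RNA came from bone marrow-derived macrophages (BMDMs), primary macrophages grown from marrow, of C57BL/6 mice. Before 4 h of stretch, which every library shares, the cells had received a control siRNA without a target (siNC, 3 libraries) or one that targets Piezo1 (siPiezo1, 3 libraries). Piezo1 is a mechanically gated cation channel, and the study asked how it promotes macrophage proliferation under mechanical stimuli. The comparison is thus knockdown against control in stretched cells. Cells without stretch were not analysed here. No age, sex or pooling of animals is given in the labels used here, nor is it said that the 3 replicates of a group are separate cultures, so the p-values reflect no more than the spread among these libraries, which may be technical.

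Glycolysis splits glucose into pyruvate in the cytosol with a small yield of ATP, and lactate dehydrogenase turns pyruvate into lactate and restores the NAD+ that the pathway needs. HIF-1 is a transcription factor made of an oxygen-labile alpha subunit (Hif1a) and a stable partner. With oxygen present, prolyl hydroxylases of the Egln family mark the alpha subunit for destruction. When oxygen is short, HIF-1 accumulates and raises transcription of most glycolytic enzymes, glucose and lactate transporters and many other genes. In macrophages the same factor also accumulates upon inflammatory stimulation, and glycolysis is known to rise in activated macrophages and in proliferating cells. RNA levels say nothing of enzyme activity, glucose flux or HIF protein.

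Total estimated counts per library ran from 61086684 to 75052745, and levels are given as CPM, counts over the library total after scaling with TMM factors. Piezo1, the siRNA target, stood at 180, 285 and 189 CPM in siNC against 111, 109 and 113 CPM in siPiezo1. These groups did not overlap, and knockdown left 51.0% of the mean control level, or 60.3% of the mean of siNC 1 and 3. With all 6 libraries its log2 fold change was -0.97 ± 0.18 (SE). It did not pass the threshold used below in the edgeR quasi-likelihood F-test (adjusted p = 0.744) or limma-voom (adjusted p = 0.698). DESeq2 called it lower (adjusted p = 0.00167). Without siNC 2 it was -0.73 ± 0.06 (SE) and was called lower in the edgeR test (adjusted p = 0.00245). Macrophage markers were abundant, with Lyz2 (lysozyme) at 20623 to 26819 CPM, whereas the T-cell genes Cd3e, Cd3d and Cd8a were at 0 in every library. Cd4, the fourth of that list, which macrophages can also express, was at 16.5, 1.83 and 13.2 CPM in siNC and 4.70, 5.39 and 1.88 CPM in siPiezo1. The 4 dendritic-cell genes summed to 0.0598 to 0.209 CPM, with Cd209a and Siglech at 0. Sums for 4 B-cell genes ran from 1.82 to 3.54 CPM, and for 4 erythroid genes from 0.254 (siNC 3) to 7.33 CPM. For 5 stromal genes they ran from 6.55 to 13.8 CPM, and for 3 endothelial genes from 7.56 to 23.7 CPM (siNC 2). The 4 mast-cell and basophil genes summed to 0.329 to 2.06 CPM. The library siNC 2 stood apart. It was the highest of the 6 libraries for 28.8% of the 15959 genes tested and the lowest for 27.1%. In it, 7 of 9 macrophage markers were at their lowest and 9 of 10 neutrophil markers at their highest, and the summed neutrophil markers were at 3177 CPM, against 628 and 674 CPM in siNC 1 and 3 and 595 to 617 CPM in siPiezo1. Fold changes of the members are therefore given with all 6 libraries and without siNC 2.

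With all 6 libraries, 0 of the 33 tested member rows passed the threshold (adjusted p under 0.05) of the edgeR quasi-likelihood F-test in either direction. Over all genes that test called 0% higher and 0.00627% lower in siPiezo1. Piezo1 itself was not called there, so an absence of calls in that test does not show that the members were unchanged. At an unadjusted p under 0.05, 1 member (Pdk1) was higher and 0 were lower, against 2.52% and 2.41% of all genes. DESeq2 called 0 members, against 0.177% of its genes higher and 0.183% lower, and limma-voom called 0, against 0% and 0.00627%. Unadjusted, DESeq2 put 1 of these 33 rows (Pdk1) under 0.05 as higher and 0 as lower, against 2.7% and 3.17% of its genes. For limma-voom these were 2 (Pdk1 and Aldoa) and 0, against 2.72% and 2.4%. The low-count row with the symbol Aldoa is outside the 33. DESeq2 tested that row as well, and unadjusted it was also under 0.05 there as higher. The siNC libraries other than siNC 2 were low for most members, siNC 2 was high, and the siPiezo1 libraries lay in between. All 3 siPiezo1 libraries stood above both siNC 1 and siNC 3 for 26 of the 33 member rows, against 16.9% of all genes tested, and they stood below both for 0, against 16.4%. For 15 of those 26 the siPiezo1 libraries lay between siNC 1 and 3 on the lower side and siNC 2 on the upper side, which held for 7.01% of all genes. siNC 2 was the highest library for 20 members and the lowest for 2.

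**Figure D1:**
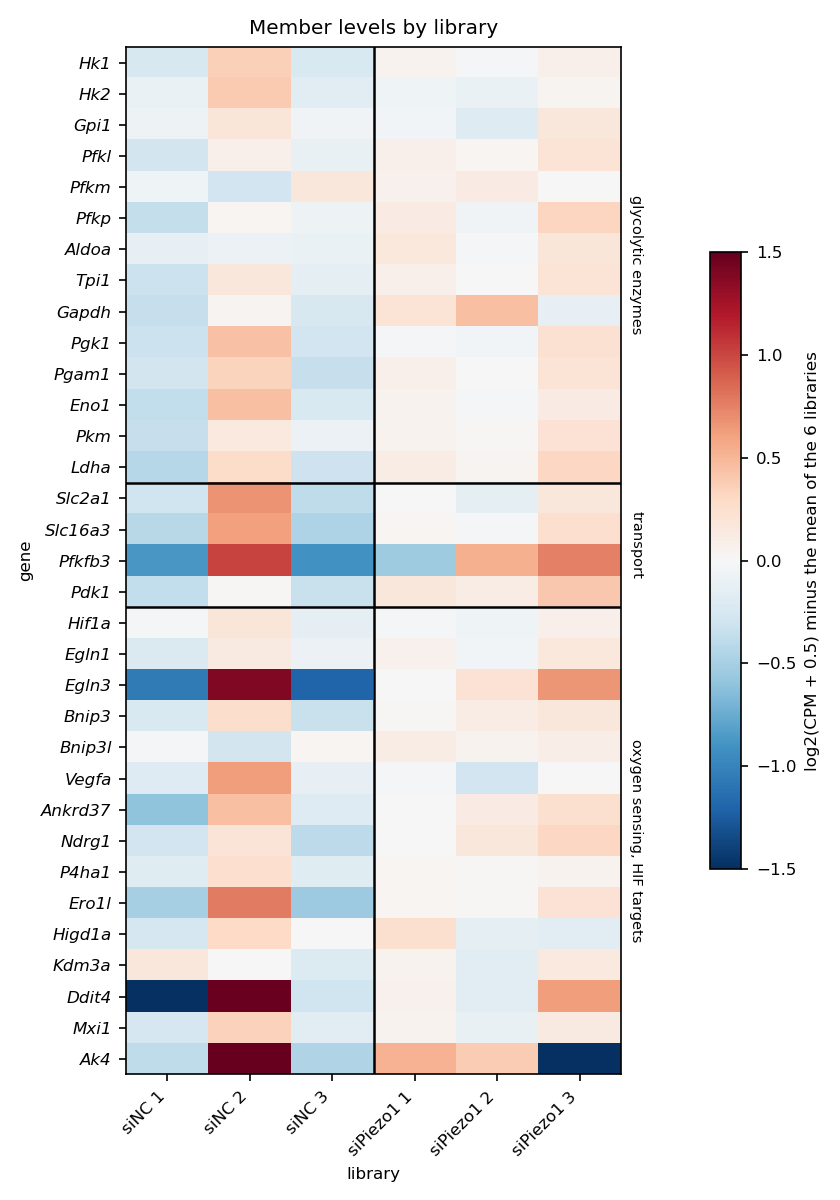
Heat map of the 33 tested members (rows, by role) in the 6 libraries (columns), coloured by log2(CPM + 0.5) minus the gene's mean over the 6 libraries, with colours saturating at 1.5 in either direction. siNC 1 and siNC 3 are mostly blue, siNC 2 mostly red, and the siPiezo1 libraries lie between them for 15 members.

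Leaving out siNC 2 changed the outcome for the list. Log2 fold changes of siPiezo1 against siNC were above 0 for 25 of 33 members with all 6 libraries, with a median of 0.09 against -0.01 over all genes tested. Without siNC 2 they were above 0 for 33 of 33, with a median of 0.34, while 50.5% of all genes were above 0 and their median was 0.004. In that test 6 members were called higher (Ldha, Pgam1, Slc16a3, Pdk1, Egln3 and Ero1l) and 0 lower, where 0.645% of all genes were called higher and 0.45% lower. At an unadjusted p under 0.05 there were 21 members higher and 0 lower, against 7.54% and 6.71% of all genes. In the same test 3 of the 9 macrophage markers were called lower and 0 higher, against 0.45% and 0.645% of all genes. Among the 3 were Adgre1 (-0.31 ± 0.05, SE) and Fcgr1 (-0.46 ± 0.07, SE). Of the 9 markers of that list, 5 had all siPiezo1 libraries below siNC 1 and 3, against 16.4% of all genes. Another 2 had them above both, against 16.9%. Fold changes of that list went both ways in this test, with 3 above 0 and 6 below. The part of these markers in the members' values was not tested. Leaving out either of the other control libraries lowered the count. Without siNC 1 the fold changes were above 0 for 15 of 33 members (median -0.02), without siNC 3 also for 15 (median -0.02), and 0 members were called in either test. By role, 9 of the 14 enzymes stayed above 0 in either test, with medians of 0.07 without siNC 1 and 0.17 without siNC 3. The Gapdh row, which carried a small part of that gene's counts (below), was among the 9. The transporters and regulators had medians of -0.04 and -0.05, and the oxygen sensing genes and other targets of -0.04 and -0.06. The direction thus depended on which control libraries were used for those groups, while the enzyme median stayed above 0.

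**Figure D2:**
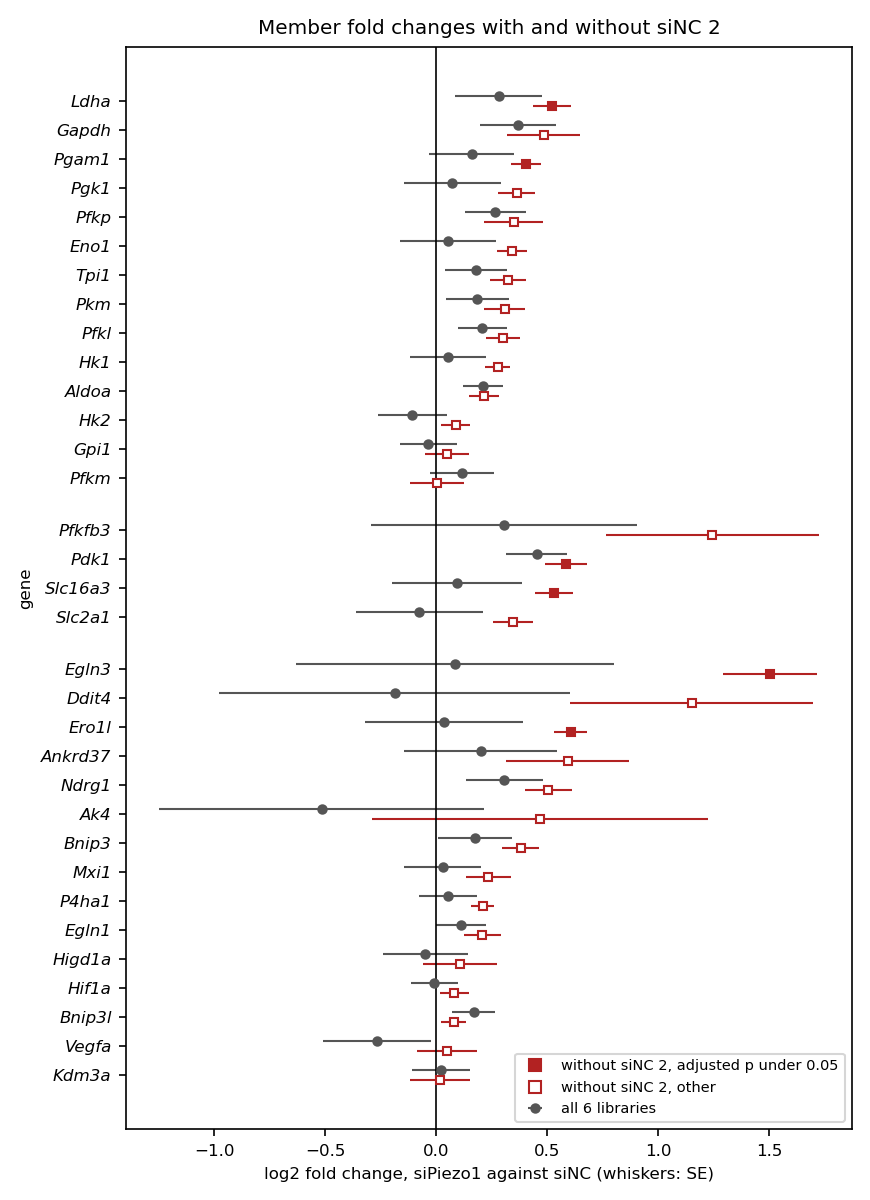
Log2 fold changes of siPiezo1 against siNC for the 33 tested members, with whiskers of 1 SE, from edgeR with all 6 libraries (grey circles) and without siNC 2 (red squares, filled where the adjusted p was under 0.05). All 33 squares lie above 0 and 6 are filled, while 25 of the circles lie above 0.

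The enzymes, in the order of the pathway, begin with hexokinase, which traps glucose as glucose 6-phosphate. Hk1 stood at 188, 285 and 189 CPM in siNC against 231, 221 and 235 CPM in siPiezo1. The siPiezo1 libraries were close together and lay above siNC 1 and 3 and below siNC 2, for a log2 fold change of 0.05 ± 0.17 (SE) with all libraries and 0.28 ± 0.06 (SE) without siNC 2. Hk2, the isoform that HIF induces, stood at 126, 177 and 120 CPM in siNC against 129, 126 and 138 CPM in siPiezo1. Its siPiezo1 libraries were near siNC 1 and 3, with fold changes of -0.11 ± 0.16 (SE) and, without siNC 2, 0.09 ± 0.07 (SE). Per kilobase of annotated exon, the siNC means of Hk1 and Hk2 were 25.9 and 23.6 CPM, while Hk3, a further hexokinase of blood cells outside the list, was at 74.0 CPM per kilobase and had a log2 fold change of 0.01 ± 0.11 (SE). Gpi1, the isomerase that makes fructose 6-phosphate, had groups that overlapped in both directions (630 to 820 CPM over all libraries; -0.03 ± 0.13, and 0.05 ± 0.10 without siNC 2, SE).

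Phosphofructokinase, the committed and most regulated step, is built from the subunits Pfkl, Pfkp and Pfkm. Pfkl stood at 179, 228 and 200 CPM in siNC against 229, 222 and 251 CPM in siPiezo1. Only siNC 2 reached the siPiezo1 range, and the log2 fold change was 0.21 ± 0.11 (SE), or 0.30 ± 0.08 (SE) without siNC 2. Pfkp stood at 103, 136 and 126 CPM in siNC against 145, 128 and 166 CPM in siPiezo1, a fold change of 0.27 ± 0.14 (SE; 0.35 ± 0.13 without siNC 2) with overlap through siNC 2 alone. Pfkm, the muscle subunit, was at 15.4 to 21.3 CPM with siNC 2 the lowest library, and its fold change of 0.12 ± 0.14 (SE) became 0.005 ± 0.12 without siNC 2, the smallest of the enzymes there. Per kilobase of exon the siNC means were 30.3 CPM for Pfkl, 9.07 for Pfkp and 5.47 for Pfkm, so Pfkl was the leading subunit.

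Aldolase, which cleaves fructose 1,6-bisphosphate, was the enzyme whose groups lay apart. Aldoa stood at 1549, 1585 and 1585 CPM in siNC against 1882, 1671 and 1912 CPM in siPiezo1. The 3 siNC libraries were nearly equal, siNC 2 included, and each siPiezo1 library was above them. Its log2 fold change was 0.21 ± 0.09 (SE; adjusted p = 0.978 by the edgeR quasi-likelihood F-test), and 0.21 ± 0.07 (SE) without siNC 2, where it did not pass either (adjusted p = 0.187 in the same edgeR test). Groups lay apart upwards for 3 members in all (Aldoa, Pdk1 and Bnip3l), against 6.24% of all genes tested, and downwards for 0, against 5.65%. The other row with the symbol Aldoa held at most 0.517 CPM and did not pass the low-count filter before the edgeR and limma-voom tests. DESeq2 tested it and did not call it (adjusted p = 0.559 in DESeq2). Tpi1, which interconverts the 3-carbon products, stood at 298, 420 and 338 CPM in siNC against 392, 374 and 429 CPM in siPiezo1 (0.18 ± 0.14, and 0.32 ± 0.08 without siNC 2, SE).

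Gapdh, the dehydrogenase that often serves as a reference gene, could not be read from its own row. That row held 41.2, 53.8 and 44.4 CPM in siNC and 60.3, 71.6 and 48.2 CPM in siPiezo1. Another 101 rows of the annotation, 99 of them processed pseudogenes, have at least 95% identity to Gapdh over 300 bases or more. The processed pseudogenes held most of the counts: the Gapdh row carried 2.79% to 4.86% of its sum with these 99 in any library. With the rows of these 99 added, the sum was 1154, 1930 and 1325 CPM in siNC and 1521, 1474 and 1688 CPM in siPiezo1. Its pattern was then that of the neighbouring enzymes, low in siNC 1 and 3, high in siNC 2 and intermediate in siPiezo1. The log2 fold change went from 0.37 ± 0.17 (SE) for the row alone to 0.09 ± 0.19 (SE) for the sum, both with all libraries; the row alone gave 0.49 ± 0.16 (SE) without siNC 2. For the other members with such copies the sum likewise took pseudogene copies only. The member's own row held at least 76.9% of that sum in each library (the lowest was Ak4 in siPiezo1 3). On average over the libraries it held 90.7% for Bnip3l, 93.0% for Eno1 and 93.5% for Pgam1. Eno1b, a protein-coding copy, was left out of the sum for Eno1, at a mean count of 5901 against 76416 for Eno1. With Eno1b included, the copies amounted to 15.3% of the count of the Eno1 row. Adding the pseudogene copies moved none of these members' fold changes by more than the SE.

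**Figure D3:**
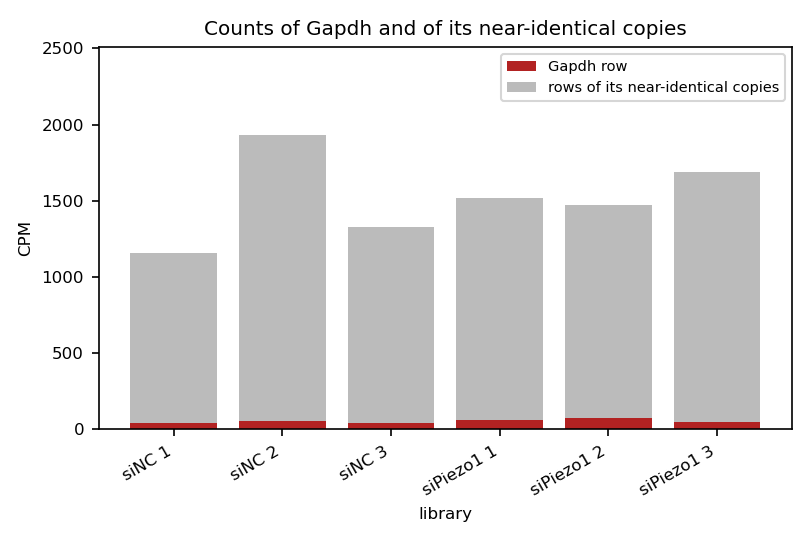
Stacked bars of CPM per library for the Gapdh row (red) and for the rows of the 99 processed pseudogenes among its near-identical copies (grey). The Gapdh row is 2.79% to 4.86% of each bar, and the whole bars run from 1154 CPM in siNC 1 to 1930 CPM in siNC 2.

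The lower part of the pathway yields ATP and ends in lactate. Pgk1, the kinase of the first ATP-forming step, stood at 645, 1100 and 665 CPM in siNC against 800, 788 and 948 CPM in siPiezo1. Eno1, enolase, stood at 832, 1464 and 911 CPM in siNC against 1110, 1046 and 1169 CPM in siPiezo1. For both genes the siPiezo1 libraries lay wholly between siNC 1 and 3 and siNC 2. Their fold changes were 0.07 ± 0.22 and 0.05 ± 0.22 with all libraries and 0.36 ± 0.08 and 0.34 ± 0.07 without siNC 2 (SE), not past the threshold (adjusted p = 0.0911 and 0.0619 in edgeR's test).

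Pgam1, the mutase between those steps, stood at 597, 913 and 570 CPM in siNC against 760, 728 and 835 CPM in siPiezo1. It had the same order of libraries, and its fold change of 0.16 ± 0.19 (SE) became 0.41 ± 0.07 (SE) without siNC 2, where it was called higher (adjusted p = 0.0375 by the edgeR quasi-likelihood F-test after Benjamini-Hochberg adjustment). Pkm, pyruvate kinase, stood at 2627, 3681 and 3140 CPM in siNC against 3467, 3386 and 3885 CPM in siPiezo1 (0.18 ± 0.14, and 0.31 ± 0.09 without siNC 2, SE). Ldha, the lactate dehydrogenase subunit that HIF induces, stood at 732, 1188 and 796 CPM in siNC against 1064, 1014 and 1224 CPM in siPiezo1. The siPiezo1 mean was 144% of the mean of siNC 1 and 3, and siNC 2 was 1.56 times that mean. Its fold change was 0.28 ± 0.20 (SE) with all libraries and 0.52 ± 0.09 (SE) without siNC 2 (adjusted p = 0.0344 by the edgeR quasi-likelihood F-test), the largest of the enzymes there. Among the 14 enzymes, 12 were above 0 with all libraries (median 0.17) and 14 without siNC 2 (median 0.32). In the latter test 2 were called. These figures take the Gapdh row alone. With pseudogene copies summed, 12 of the 14 were above 0 with all libraries and the median was 0.14.

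**Figure D4:**
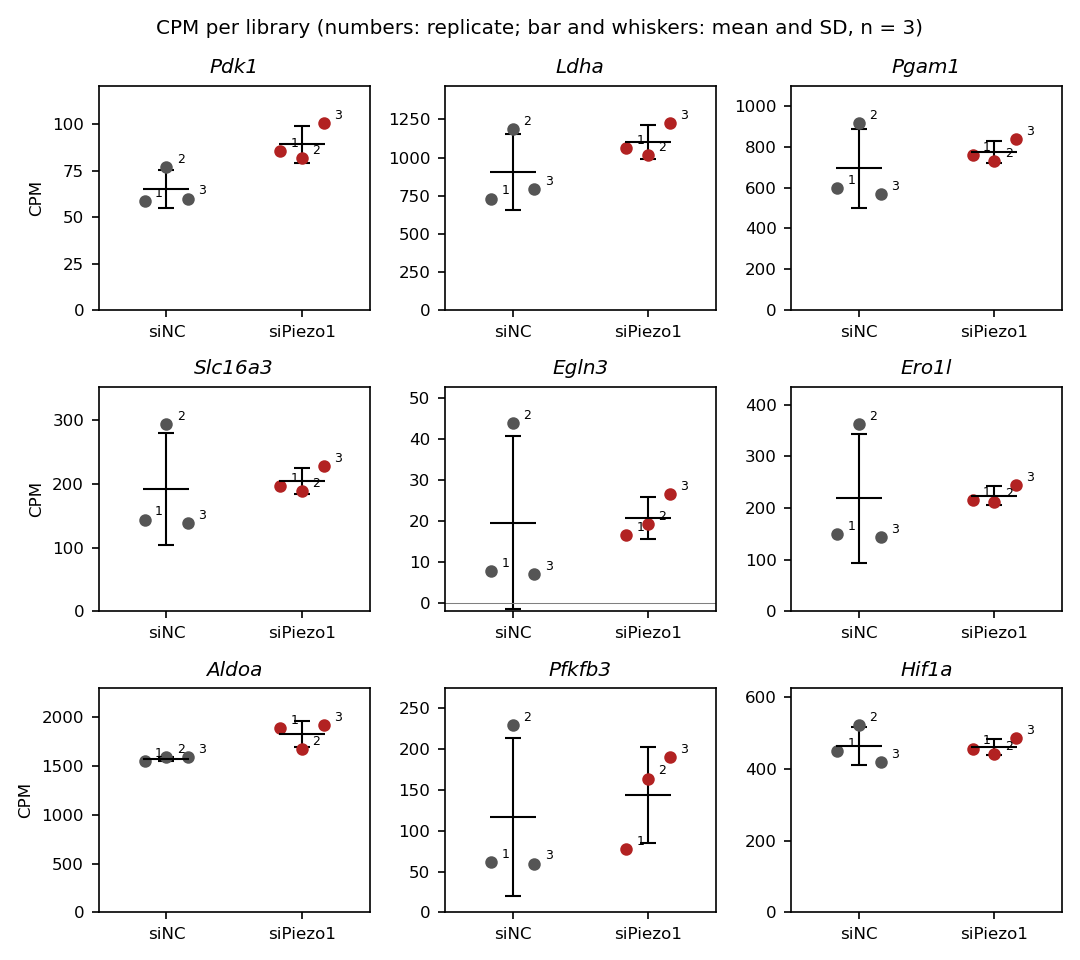
CPM of 9 members in each library (points, numbered by replicate), with the mean and SD of each group (bar and whiskers, n = 3) on linear axes. For Ldha, Pgam1, Slc16a3, Egln3 and Ero1l siNC 2 stands far above siNC 1 and 3, whereas for Aldoa the 3 siNC points coincide at 1549 to 1585 CPM.

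Of the 4 transporters and regulators, Pdk1 separated the groups. Pdk1 encodes pyruvate dehydrogenase kinase, which shuts pyruvate out of the mitochondrial citric acid cycle and is a classical HIF target. It stood at 58.6, 77.0 and 60.0 CPM in siNC against 85.3, 81.9 and 100.4 CPM in siPiezo1. All siPiezo1 libraries were above all siNC libraries, siNC 2 included. The log2 fold change of 0.45 ± 0.14 (SE) was the largest upward among the 33 members, with the smallest p among them (adjusted p = 0.967 by the edgeR quasi-likelihood F-test and 0.437 in DESeq2). Without siNC 2 it was 0.59 ± 0.10 (SE) and was called (adjusted p = 0.0334 by the edgeR quasi-likelihood F-test), and over the 6 tests that each left out 1 library it ranged from 0.36 to 0.59.

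Slc16a3, the lactate exporter MCT4, stood at 144, 294 and 139 CPM in siNC against 197, 190 and 229 CPM in siPiezo1. The siPiezo1 libraries were again intermediate, at a mean of 145% of siNC 1 and 3. Its log2 fold change was 0.09 ± 0.29 (SE), and 0.53 ± 0.08 (SE) without siNC 2 (adjusted p = 0.0323 by the edgeR quasi-likelihood F-test). Slc2a1, the glucose transporter GLUT1, stood at 136, 267 and 128 CPM in siNC against 166, 150 and 187 CPM in siPiezo1. Its sign turned, from -0.08 ± 0.29 to 0.35 ± 0.09 (SE) without siNC 2, and neither passed the threshold. Pfkfb3 makes fructose 2,6-bisphosphate, the activator of phosphofructokinase. It was the most variable of the 4, at 61.4, 229 and 59.7 CPM in siNC against 77.8, 164 and 190 CPM in siPiezo1, so that siPiezo1 1 stood near the low controls and siPiezo1 3 near siNC 2 (0.30 ± 0.60, SE; 1.25 ± 0.48 without siNC 2, adjusted p = 0.406 in edgeR's test).

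In the oxygen sensing group, Hif1a itself differed little. It stood at 451, 522 and 419 CPM in siNC against 457, 441 and 486 CPM in siPiezo1, with overlapping groups and log2 fold changes of -0.01 ± 0.11 and, without siNC 2, 0.08 ± 0.06 (SE). The hydroxylase genes Egln1 and Egln3 are themselves HIF targets. Egln1 stood at 59.3, 75.5 and 64.9 CPM in siNC against 72.0, 66.9 and 76.9 CPM in siPiezo1 (0.11 ± 0.11, and 0.21 ± 0.08 without siNC 2, SE). Egln3 stood at 7.69, 44.0 and 6.89 CPM in siNC against 16.4, 19.3 and 26.5 CPM in siPiezo1. For Egln3 the siPiezo1 mean was 284% of siNC 1 and 3, and siNC 2 was 6.04 times those controls. Its fold change of 0.09 ± 0.72 (SE) became 1.50 ± 0.21 (SE) without siNC 2, the largest of the members there (adjusted p = 0.0211 by the edgeR quasi-likelihood F-test). Without siNC 1 or siNC 3 it was -0.30 or -0.32.

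Bnip3 and Bnip3l encode related mitophagy receptors of the outer mitochondrial membrane. Bnip3 stood at 48.7, 68.9 and 45.1 CPM in siNC against 57.9, 61.5 and 64.3 CPM in siPiezo1, intermediate again (0.17 ± 0.17, SE; 0.38 ± 0.08 without siNC 2). Bnip3l stood at 133, 112 and 137 CPM in siNC against 146, 140 and 145 CPM in siPiezo1. Here siNC 2 was the lowest library and the groups lay apart, with fold changes of 0.17 ± 0.10 and, without siNC 2, 0.08 ± 0.06 (SE), neither past the threshold.

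Ero1l (Ero1a in RefSeq), the oxidase that drives disulfide formation in the endoplasmic reticulum, stood at 149, 362 and 144 CPM in siNC against 215, 212 and 245 CPM in siPiezo1. The siPiezo1 libraries formed a tight group at 153% of the mean of siNC 1 and 3. Its log2 fold change was 0.04 ± 0.36 (SE) with all libraries and 0.61 ± 0.07 (SE) without siNC 2, with the smallest adjusted p of the members there (adjusted p = 0.0133 by the edgeR quasi-likelihood F-test). P4ha1, a collagen prolyl hydroxylase subunit, stood at 170, 230 and 170 CPM in siNC against 196, 196 and 200 CPM in siPiezo1 (0.05 ± 0.13; 0.21 ± 0.05 without siNC 2, SE). Ndrg1, a stress-responsive gene, stood at 39.4, 55.1 and 36.6 CPM in siNC against 48.3, 54.1 and 59.8 CPM in siPiezo1 (0.31 ± 0.17; 0.51 ± 0.11 without siNC 2, SE; adjusted p = 0.0724 in edgeR's test).

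In the remaining targets the groups overlapped. Vegfa, the angiogenic growth factor, stood at 15.7, 28.1 and 16.5 CPM in siNC against 17.7, 14.7 and 17.9 CPM in siPiezo1. It was high in siNC 2 only, and siPiezo1 stayed with siNC 1 and 3 (-0.27 ± 0.24; 0.05 ± 0.13 without siNC 2, SE). Kdm3a, a histone demethylase, had the smallest fold change of this group without siNC 2 (0.02 ± 0.13, SE, the same as with all libraries; 52.1 to 67.5 CPM over all libraries). Ddit4, an inhibitor of mTORC1, stood at 1.51, 17.8 and 4.81 CPM in siNC against 6.36, 5.30 and 9.57 CPM in siPiezo1 (-0.19 ± 0.79, and 1.15 ± 0.55 without siNC 2, SE). Ak4, a mitochondrial adenylate kinase, stood at 9.19, 35.2 and 8.73 CPM in siNC against 17.6, 15.9 and 3.75 CPM in siPiezo1, so its siPiezo1 libraries lay on both sides of siNC 1 and 3. Ak4 had the most negative fold change of the members with all libraries (-0.52 ± 0.73, SE), and its sign turned without siNC 2 (0.47 ± 0.76, SE). Ankrd37, Higd1a and Mxi1 had fold changes of 0.20 ± 0.34, -0.05 ± 0.19 and 0.03 ± 0.17 with all libraries, and of 0.59 ± 0.28, 0.11 ± 0.17 and 0.23 ± 0.10 without siNC 2 (SE), so the sign of Higd1a turned. Exons of genes on the opposite strand cover 26.4% of Ankrd37, 22.5% of Higd1a and 22.3% of Bnip3. Whether the counting used the strand is not given in the sources used here, so reads of those genes cannot be told apart. Exons of genes on the same strand cover 15.3% of Pkm, 10.2% of Pfkm and 2.51% of Hif1a, where the strand would not separate the reads. Of the 15 genes in this group, 10 were above 0 with all libraries (median 0.04) and 15 without siNC 2 (median 0.23), of which 2 were called.

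HIF-1 binds a short core that reads ACGTG or GCGTG, and the promoters of the 6 members called without siNC 2 are shown because these were the members past a threshold in any test. In Pgam1, Slc16a3, Egln3 and Ero1l the siPiezo1 libraries lay between siNC 1 and 3 and siNC 2, in Ldha siPiezo1 3 exceeded siNC 2, and in Pdk1 all siPiezo1 libraries did. Each window is the 250 bases before the 5'-most RefSeq start of the gene in GRCm38.p6, another build than the GRCm39 named in the processing notes. The windows are Pgam1 at chr19:41911621-41911870 (plus strand), Ldha at chr7:46845554-46845803 (plus strand), Slc16a3 at chr11:120948817-120949066 (plus strand), Pdk1 at chr2:71872974-71873223 (plus strand), Egln3 at chr12:54203875-54204124 (minus strand) and Ero1l at chr14:45318573-45318822 (minus strand). Sequences read 5' to 3' on the gene's strand, and capitals mark ACGTG or GCGTG on either strand, so CACGT and CACGC are their reverse complements.
Pgam1: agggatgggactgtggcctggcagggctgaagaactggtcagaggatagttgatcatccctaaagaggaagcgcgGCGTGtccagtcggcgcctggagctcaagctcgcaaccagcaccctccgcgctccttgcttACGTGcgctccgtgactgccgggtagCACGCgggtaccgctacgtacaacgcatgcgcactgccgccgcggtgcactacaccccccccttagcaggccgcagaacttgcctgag
Ldha: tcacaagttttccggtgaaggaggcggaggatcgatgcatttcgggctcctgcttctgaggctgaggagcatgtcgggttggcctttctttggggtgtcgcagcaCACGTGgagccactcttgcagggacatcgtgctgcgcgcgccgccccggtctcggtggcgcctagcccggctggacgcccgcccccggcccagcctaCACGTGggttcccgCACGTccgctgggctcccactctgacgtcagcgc
Slc16a3: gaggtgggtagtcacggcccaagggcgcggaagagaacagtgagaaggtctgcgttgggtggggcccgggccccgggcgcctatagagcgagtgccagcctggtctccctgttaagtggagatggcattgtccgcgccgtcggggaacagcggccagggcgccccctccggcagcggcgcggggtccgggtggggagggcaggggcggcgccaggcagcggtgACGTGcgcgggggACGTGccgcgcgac
Pdk1: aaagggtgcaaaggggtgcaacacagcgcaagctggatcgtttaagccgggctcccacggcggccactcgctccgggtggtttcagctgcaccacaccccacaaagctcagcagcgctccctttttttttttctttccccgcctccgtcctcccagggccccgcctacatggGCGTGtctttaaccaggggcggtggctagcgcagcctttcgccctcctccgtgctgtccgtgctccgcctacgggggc
Egln3: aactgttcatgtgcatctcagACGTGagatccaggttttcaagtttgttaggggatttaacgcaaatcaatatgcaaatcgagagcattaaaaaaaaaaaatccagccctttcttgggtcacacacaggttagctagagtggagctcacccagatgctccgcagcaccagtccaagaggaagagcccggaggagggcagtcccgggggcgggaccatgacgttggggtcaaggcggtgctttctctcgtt
Ero1l: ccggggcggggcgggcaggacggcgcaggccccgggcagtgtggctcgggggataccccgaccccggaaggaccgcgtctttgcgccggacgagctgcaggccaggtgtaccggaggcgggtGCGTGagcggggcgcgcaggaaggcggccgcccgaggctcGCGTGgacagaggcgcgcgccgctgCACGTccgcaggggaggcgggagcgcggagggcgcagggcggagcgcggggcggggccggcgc
Ldha held 5 matches to ACGTG, because each of its 2 CACGTG palindromes, which are also E-boxes, counts on both strands. Slc16a3 held 2 ACGTG, Egln3 held 1, Pdk1 held 1 GCGTG, and Pgam1 and Ero1l each held 1 ACGTG and 2 GCGTG. Among the 31 members with a window, 24 (77.4%) held at least 1 match and 18 (58.1%) held 2 or more. The same shares were 55.6% and 27.4% of the 10500 tested genes with a window and 38.6% and 16.8% of all 27025 windows. By role, 9 of 14 enzymes, 4 of 4 transporters and regulators and 11 of 13 oxygen sensing genes held a match. Pkm had 0 matches and a fold change of 0.31 ± 0.09 (SE) without siNC 2, while Kdm3a had 1 match and 0.02 ± 0.13 (SE). Only the 5'-most start was searched, of 2 RefSeq starts for Pkm and 3 for Kdm3a. Any relation of matches to fold changes was not tested. A match is not evidence of binding, and a window without one says nothing of more distant sites. Bnip3l and Ndrg1 were not matched.

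Neighbouring pathways were read from the same fit, with 65 rows in 4 lists of which 56 were tested. No gene of the 4 lists passed the threshold with all 6 libraries in edgeR's test, in DESeq2 or in limma-voom. At an unadjusted p under 0.05 edgeR's test put 5 higher and 2 lower, against 2.52% and 2.41% of all genes. Without siNC 2 it called 2 higher and 0 lower, against 0.645% and 0.45% of all genes. Both called genes were of the list of HIF regulators and further HIF targets. That list went both ways: of its 23 tested genes, 13 were above 0 and 10 below with all libraries, and 17 and 6 without siNC 2. Its lowest log2 fold changes were -1.34 and -1.52 in these tests. Groups lay apart upwards for 4 of the 23 and downwards for 1, against 6.24% and 5.65% of all genes. Cited2, an inhibitor of HIF-1 and itself a HIF target, stood at 49.6, 63.8 and 47.8 CPM in siNC against 81.1, 73.6 and 74.8 CPM in siPiezo1. Its groups lay apart, with a fold change of 0.51 ± 0.13 (log2 scale, SE; adjusted p = 0.861 by the edgeR quasi-likelihood F-test) and 0.65 ± 0.08 (SE) without siNC 2 (adjusted p = 0.0125 by the edgeR quasi-likelihood F-test). The other called gene, named after its values were seen, was Bhlhe40, a transcriptional repressor, at 25.5, 59.0 and 18.3 CPM in siNC and 40.5, 37.9 and 39.5 CPM in siPiezo1 (adjusted p = 0.0362 in the same edgeR test). Bhlhe41, its paralog, lay apart too, at 192, 183 and 177 CPM against 254, 213 and 224 CPM (0.32 ± 0.09, SE).

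Regulators of HIF stability and its partner were nearly level. Arnt, the stable HIF partner, had a log2 fold change of 0.04 ± 0.09, Vhl, the ubiquitin ligase subunit for hydroxylated HIF, -0.02 ± 0.10, Egln2 -0.01 ± 0.10 and Hif1an, the asparagine hydroxylase, 0.04 ± 0.09 (SE). In the list of other glycolytic isoforms, transporters and regulators, 6 of 18 tested genes were above 0 with all libraries and 10 of 18 without siNC 2. The aldolase isoform Aldoc stood at 34.9, 24.4 and 27.8 CPM in siNC and 40.6, 34.1 and 40.3 CPM in siPiezo1 (0.40 ± 0.15, SE), and the enolase isoform Eno2 at 4.12, 4.12 and 4.25 CPM against 2.89, 2.91 and 3.05 CPM (-0.50 ± 0.20, SE). Both Aldoc and Eno2 missed the threshold with and without siNC 2.

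The branches that leave glycolysis were read in the same way. The pentose phosphate pathway, which makes NADPH and ribose, had a median log2 fold change of 0.04 over 7 genes with all libraries and 0.05 without siNC 2. Its entry enzyme G6pdx stood at 640, 578 and 629 CPM in siNC and 655, 610 and 629 CPM in siPiezo1. Taldo1, transaldolase, was the pathway's gene with the smallest p, at 428, 311 and 438 CPM against 529, 516 and 492 CPM (0.38 ± 0.14, SE; adjusted p = 0.100 without siNC 2 in edgeR's test), and Pgd had 0.11 ± 0.10 (SE). Pyruvate entry into mitochondria (carrier, pyruvate dehydrogenase subunits and phosphatases, 9 genes) had medians of -0.03 and -0.05. Pdhx and Pdp2, with the smallest p there, had fold changes of -0.25 ± 0.12 and -0.30 ± 0.19 (SE).

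Other gene lists were read across the same libraries. Mki67, a proliferation marker, stood at 165, 391 and 174 CPM in siNC against 195, 238 and 290 CPM in siPiezo1, so it too was lowest in siNC 1 and 3 and highest in siNC 2. All 5 proliferation genes and all 8 inflammatory genes examined were highest in siNC 2, against 28.8% of all genes. The siPiezo1 libraries lay wholly between siNC 1 and 3 and siNC 2 for 3 of the 5 and 5 of the 8. This order, found for 15 of the 33 members and 7.01% of all genes, also held for 11 of the 56 tested neighbouring genes. The inflammatory gene Nos2, also a HIF target, stood at 13.2, 211 and 13.5 CPM in siNC against 39.0, 27.5 and 60.7 CPM in siPiezo1. Ccnd1, by contrast, was lower in each siPiezo1 library (13.9, 18.5 and 14.2 CPM) than in each siNC library (29.1, 53.8 and 30.8 CPM); it missed the threshold with all libraries in edgeR's test (adjusted p = 0.744), was called lower there by DESeq2 (adjusted p = 0.00257), and fell in edgeR's test without siNC 2 (adjusted p = 0.0270). Of the 10 neutrophil markers, 0 had all siPiezo1 libraries above siNC 1 and 3 (16.9% of all genes did), and 3 (S100a9, Ltf and Cebpe) had them below all siNC libraries (5.65% of all genes did). The part of cell composition, activation or proliferation in the members' levels was not tested, and in bulk RNA more cells of a type and more RNA per cell cannot be told apart.

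**Figure D5:**
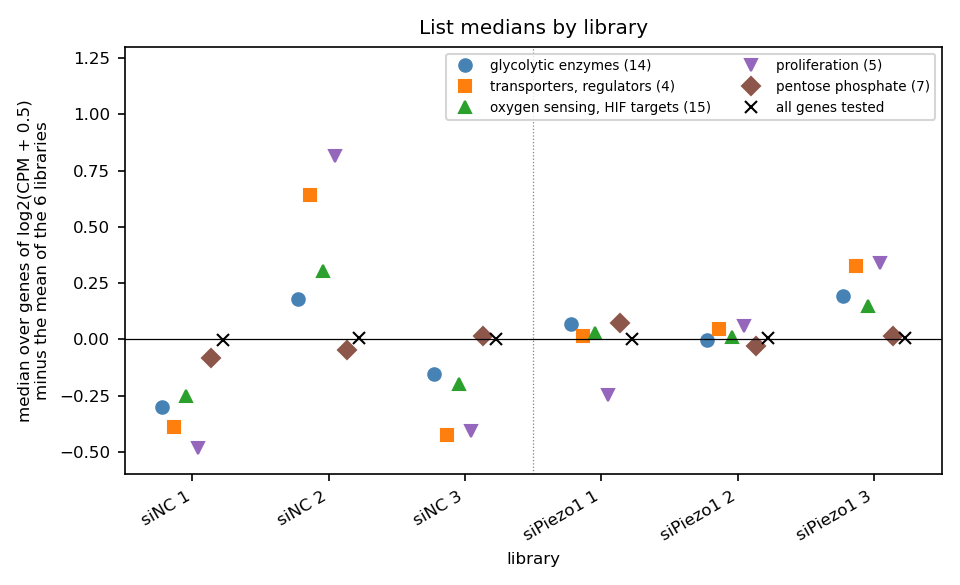
Median over the genes of each list of log2(CPM + 0.5) minus the gene's mean over the 6 libraries, by library, for the 3 role groups, the 5 proliferation genes, the 7 pentose phosphate genes and all genes tested. The role groups and the proliferation genes are lowest in siNC 1 and 3, while the pentose phosphate genes and all genes stay near 0.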

How the data were processed

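The deposited values are estimated counts per Ensembl gene, whole numbers that the authors did not scale between samples, as the values show. Low values pile up at 4 (4589 cells of the table hold 4, against 1293 holding 3 and 883 holding 5). They do so again at 8 (2982 cells, against 828 holding 7 and 581 holding 9). Values of 1 (2999 cells) and 2 (2548 cells) were common too. From the piles, 1 fragment was probably worth about 4 counts, in which case the counts overstate the depth. The unit is not stated in the sources used here. Per the submitters' processing notes, cutadapt 1.9, HISAT2 2.0.4, StringTie 1.3.4d, DESeq2, edgeR and GRCm39 were used, with no role stated. Groups came from sample titles, and 0 columns were left unmapped.

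Identifiers were named with GENCODE M21 (GRCm38), which matched 55141 of 55401 rows. In R 4.3.3, edgeR 4.0.16 was fitted to all genes: filterByExpr (15959 genes kept), TMM, robust quasi-likelihood test on the group, and Benjamini-Hochberg adjustment at 0.05 over all genes tested. SE is the size of the log2 fold change over the square root of F. Members, lists and roles were chosen with earlier results of these data known. Values were given for members past the threshold, with groups apart, with the smallest p or largest fold change of each role, for shared-step isoforms, and for the 2 genes with the smallest p of each neighbouring list; other members were added. Near-identical copies were transcripts with at least 95% identity over 300 bases (blastn), of which only pseudogenes were summed. Alternatives were DESeq2 1.42.0, limma-voom (limma 3.58.1), other scaling and filters, counts divided by 4, a replicate block, summed copies and each library left out. The test was checked on simulated counts. One marker's own values are not reported here.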

Additional observations from a re-analysis of the deposited data

How the results depend on the processing

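With all 6 libraries in the test, no alternative called a glycolysis or hypoxia member. Calls over all genes moved from 0 higher and 1 lower to 33 and 34 with DESeq2, and the 1 lower was lost (0) with library totals alone and with the replicate block. Leaving out 1 library at a time gave 0 to 106 genes higher and 0 to 74 lower, 0 to 6 members higher and 0 to 2 genes of the neighbouring lists higher; the upper end was each time the test without siNC 2. It rests on 2 control libraries. Same-numbered libraries did not deviate together (correlations of 0.03, -0.06 and -0.09 across genes), siNC 2 correlated best with siPiezo1 3 (0.12), and the numbers were not taken to pair the samples. The sign of Slc2a1 turned with limma-voom (0.0016) and the replicate block (0.0093), and so did that of Ddit4 (0.32 and 0.49); the cause was not tested. No other member turned sign with an alternative that kept all libraries.

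Members whose sign turned when 1 library was left out had these lowest and highest log2 fold changes: Hk1 -0.051 and 0.28, Hk2 -0.21 and 0.088, Gpi1 -0.14 and 0.050, Pgk1 -0.063 and 0.36, Eno1 -0.10 and 0.34, Slc2a1 -0.26 and 0.35, Slc16a3 -0.095 and 0.53, Pfkfb3 -0.011 and 1.25, Hif1a -0.077 and 0.082, Egln3 -0.32 and 1.50, Vegfa -0.42 and 0.049, Ankrd37 -0.043 and 0.59, P4ha1 -0.021 and 0.21, Ero1l -0.19 and 0.61, Higd1a -0.20 and 0.11, Kdm3a -0.068 and 0.12, Ddit4 -0.68 and 1.15, Mxi1 -0.084 and 0.23, and Ak4 -0.85 and 0.47. Aldoa, Pdk1, Ldha, Pgam1, Pkm, Tpi1, Gapdh, Pfkl, Pfkm, Pfkp, Bnip3, Bnip3l, Ndrg1 and Egln1 stayed above 0 in each of these tests. For Gapdh this holds for its own row alone, and the sum with its copies was not fitted with a library left out.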
